A study of Mus musculus with 4 samples.

Results

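H3K4me3 regions that were called in a single cell line and that overlapped an H3K27me3 region of that same line are described here for rosette stem cells of the mouse lines CGR8 and R1, both derived from embryonic stem cells. They were chosen from the called regions themselves: an H3K4me3 region on chromosomes 1 to 19 was taken when it overlapped no H3K4me3 region of the other line and overlapped an H3K27me3 region of its own line by at least 1 bp, with chr1:104000001-124000000 (build mm9, as all positions here) left out. There were 731 such regions, 375 of CGR8 alone and 356 of R1 alone, among 49859 H3K4me3 regions in the lists of both lines and 76945 regions in the 4 lists of the series.

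Rosette stem cells are pluripotent cells held between the naive state, that of the early epiblast, and the primed state that precedes lineage commitment. Cells of strain 129/Ola (CGR8) and of strain 129 (R1) had been grown on plates coated with gelatin and fetal calf serum, for 8 days in N2B27 medium with LIF, 2 µM IWP2, an inhibitor of WNT secretion, and 1 µM PD325901, a MEK inhibitor. Both lines were treated alike, and the series was set up to chart the 2 histone marks in pluripotent states. Each mark was mapped by chromatin immunoprecipitation and sequencing in 1 library of each line, so a difference between CGR8 and R1 has no replicate check, and a difference between the lines cannot be told apart from a difference between 2 libraries or cultures.

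H3K27me3 is written by Polycomb repressive complex 2 and marks repressed genes, often in broad domains over developmental regulators. H3K4me3 is written by the SET1 and MLL complexes, the latter related to fly Trithorax, at promoters and CpG islands. In pluripotent cells both marks meet at the promoters of many developmental genes, which are then called bivalent and are held at low expression. An overlap of regions from 2 libraries does not show that both marks sit on the same nucleosome or in the same cell.

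The regions were a minor part of either list. In CGR8, 10.2% of the 24519 H3K4me3 regions on these chromosomes (2512) had no counterpart in R1, and 375 of them, or 14.9% (exact Clopper-Pearson 95% interval 13.6 to 16.4%, counting error only), lay in H3K27me3. In R1, 7.38% of 23882 (1762) had no counterpart in CGR8, and 356 of them, or 20.2% (18.4 to 22.2%), lay in H3K27me3. Of all H3K4me3 regions, 28.5% in CGR8 and 29.4% in R1 overlapped H3K27me3, and of the shared ones 30.1% in each line did. One-line regions were thus less often inside H3K27me3 than shared ones in both lines. They made up 5.36% of the H3K4me3 regions inside H3K27me3 in CGR8 and 5.07% in R1. A further 1.99% of the one-line regions of CGR8 and 5.90% of those of R1 lay in H3K27me3 of the other line only and are not counted here.

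The lists hold no value for a place that was not called, so a region of 1 line is one that did not reach the authors' threshold in the other line. Scores are those the authors deposited. In the H3K4me3 lists the score equals a sum over windows of 200 bp that hold at least 2 reads. Each such window adds the negative natural log of the Poisson probability of its reads. The score thus grows with width as well as with reads. Both scores and overlaps entered the choice of these regions, directly or through the calling threshold, and their values are given as a description with no test.

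The one-line regions inside H3K27me3 were weak and narrow. Their scores in CGR8 ran from 38.5, at the bottom of the whole list, to 151.9, with a median of 48.4 and quartiles of 42.8 and 57.7. In R1 they ran from 37.4 to 136.7, with a median of 47.2 and quartiles of 40.7 and 57.8, and the lowest score of the list was 37.3. Shared H3K4me3 regions inside H3K27me3 had a median of 364 in CGR8 and 417 in R1. In CGR8, 355 of the 375 (94.7%) were among the lowest-scoring 25% of the list, as were 343 of the 356 (96.3%) in R1. No region of either set reached the upper 50% of its list, and only 9 in CGR8 and 5 in R1 scored 100 or more. The low level was not special to H3K27me3: one-line regions outside it had median scores of 49.7 in CGR8 and 45.7 in R1.

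**Figure D1:**
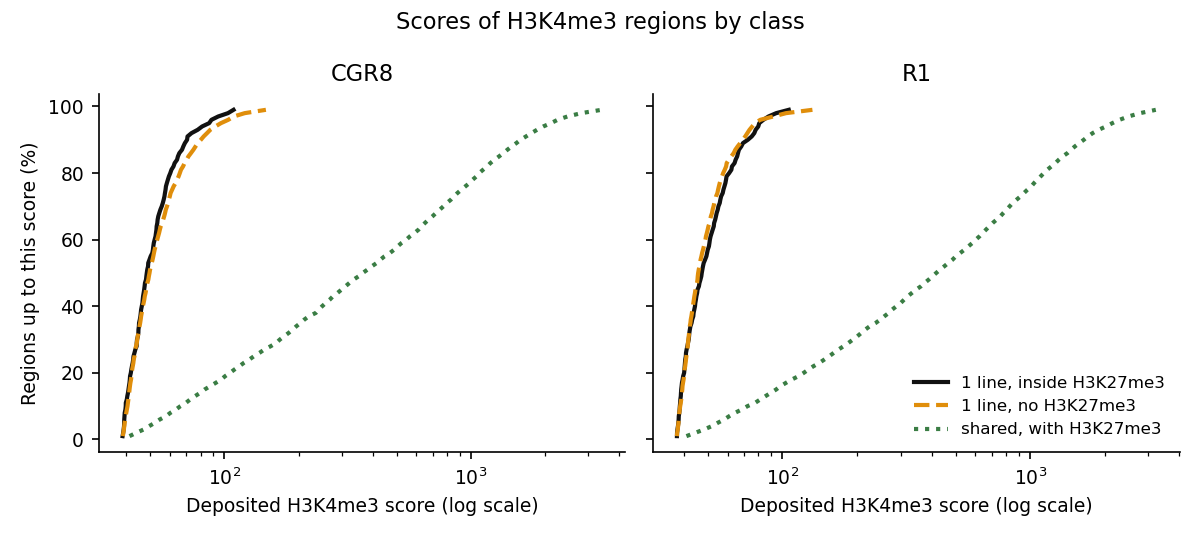
Share of H3K4me3 regions (%) up to a given deposited score (log scale) in CGR8 and R1, for one-line regions inside H3K27me3 (black), one-line regions without H3K27me3 (orange, dashed) and shared regions with H3K27me3 (green, dotted). Both one-line curves rise steeply above the lowest score of the list, with medians from 45.7 to 49.7, while the shared regions have medians of 364 and 417.

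Widths ranged from 400 to 4800 bp in CGR8 and from 400 to 3800 bp in R1, with a median of 1000 bp in both, which is 5 windows. In CGR8, 200 of 375 (53.3%) were 1000 bp wide or less, and in R1 221 of 356 (62.1%) were. One-line regions without H3K27me3 had a median width of 1400 bp in CGR8 and 1000 bp in R1, and shared regions with H3K27me3 of 1800 bp in both lines. In R1 the upper quartile was 1200 bp inside H3K27me3 and 1600 bp for one-line regions outside it. The one-line regions inside Polycomb-marked chromatin were thus narrower than those outside it in CGR8, and in R1 they had the same median and fewer wide ones.

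Because the score has this form, the reads behind it could be worked back for regions up to 1400 bp wide. This gave a single answer for all 295 such regions in CGR8 and all 310 in R1. A region of CGR8 alone held a median of 29 reads (quartiles 25 and 32, range 20 to 68), and a region of R1 alone a median of 27 (quartiles 24 and 31.75, range 18 to 59). Per scored window that was a median of 6.40 reads in CGR8 and 6.25 in R1, against a library mean of 0.740 and 0.706 reads per window. The scored windows of a region thus stood at a median of 8.65 and 8.86 times the library mean, which is above the level of the whole region where windows were left out. The reads are few: for the median-sized counts the exact Poisson interval is wide, as in a CGR8 region of 28 reads (18.6 to 40.5). At the depth of these libraries, a place with somewhat fewer reads in the other line would have gone uncalled, and whether the lines differ at such a place was not tested.

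The strongest regions stood well above that level. The highest score in CGR8 was at chr5:150155201-150156400, with 151.9 from 68 reads in 6 windows (exact Poisson interval 52.8 to 86.2) where the library mean gives 4.44. It lay in an H3K27me3 region of 10.6 kb and 8.2 kb from the nearest shared H3K4me3 region. Next came chr12:119026601-119028000, with a score of 133.0 and 60 reads in 7 windows, of which only 200 bp reached into an H3K27me3 region of 7.2 kb that R1 lacked. At chr8:26478401-26479800 the score was 119.3 from 61 reads, in a shared H3K27me3 region of 6.0 kb with no other H3K4me3 and 84.0 kb from a shared region. Then followed chr18:74122401-74123400, with 109.1 from 51 reads, and chr4:45768201-45773000, with 108.8 over 4.8 kb. These 5 regions had no shared H3K4me3 region in their host, the H3K27me3 region that they overlapped.

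In R1 the highest score was 136.7 at chr18:37170201-37171200, from 59 reads in 5 windows (interval 44.9 to 76.1), in a host of 29.6 kb with 4 H3K4me3 regions of which 2 were shared. A score of 134.4 was found at chr2:107130201-107131800, in a host of 12.8 kb and 315.2 kb from a shared H3K4me3 region. Then came chr11:96164401-96166600, with 114.2, in a host of 127.2 kb. The other two were chr8:25705801-25706600, with 112.4 from 50 reads in 4 windows, and chr18:37376801-37378000, with 100.8 from 49 reads. All 5 lay in H3K27me3 regions that CGR8 also had.

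The widest regions were weaker for their length. In CGR8 they were chr11:3070601-3075400 and chr4:45768201-45773000, both of 4.8 kb, then chr10:119833601-119836600 and chr17:85871801-85874800 of 3.0 kb and chr11:3086001-3088800 of 2.8 kb, with scores from 40.3 to 108.8. In R1 they were chr7:56888801-56892600 of 3.8 kb, chr13:52014001-52017200 of 3.2 kb, chr18:81176201-81179200 of 3.0 kb, and chr12:81625001-81627800 and chr8:94888401-94891200 of 2.8 kb, with scores from 49.8 to 86.4. Of these, the chromosome 12 region reached only 200 bp into its host.

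Most of the regions lay wholly inside H3K27me3: 305 of 375 in CGR8 (81.3%) and 308 of 356 in R1 (86.5%), against 79.7% and 78.3% of shared regions with H3K27me3. At the edge of the rule, 20 regions in CGR8 and 18 in R1 overlapped H3K27me3 by a single window of 200 bp. Just outside it, 13 one-line regions in CGR8 and 10 in R1 touched an H3K27me3 region without overlapping it. The other edge, overlap with the other line's H3K4me3, was seldom close. In CGR8 19 regions and in R1 38 lay within 1000 bp of an H3K4me3 region of the other line, and 1 of CGR8, at chr16:31931201-31932600, abutted one.

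The hosts themselves were mostly found in both lines. In CGR8, 279 of 375 regions (74.4%, interval 69.7 to 78.7%) had a host that overlapped an H3K27me3 region of R1, where 66.9% of all CGR8 H3K27me3 regions did. In R1, 339 of 356 (95.2%, 92.5 to 97.2%) had a host shared with CGR8, where 84.7% of all R1 H3K27me3 regions were shared. The CGR8 list is the longer one, with 14401 H3K27me3 regions on these chromosomes against 11794, which bears on both shares. H3K27me3 regions with a shared H3K4me3 region were shared at 93.1% in CGR8 and 91.4% in R1, and those without any H3K4me3 at 49.5% and 77.9%. The hosts of CGR8 thus stood between these 2 classes, and those of R1 above both. These sets were not matched for width. Hosts, regions with shared H3K4me3 and regions without H3K4me3 had median widths of 8400, 8800 and 7200 bp in CGR8. In R1 the medians were 9000, 7400 and 6000 bp. The part of width in these shares was not tested.

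The very bases under the H3K4me3 region were also in H3K27me3 of the other line for 237 of the 375 CGR8 regions (63.2%) and 331 of the 356 R1 regions (93.0%). At those places Polycomb marking was called in both lines and H3K4me3 in only 1. In 42 cases in CGR8 and 8 in R1 the host was shared but the bases under H3K4me3 lay outside the other line's H3K27me3. The remaining 96 regions of CGR8 and 17 of R1 had a host of their own line alone, so that neither mark's region had a counterpart. Scores of H3K4me3 did not separate these groups: the median was 49.0 with a shared host and 47.5 with a host of 1 line in CGR8, and 47.2 and 47.8 in R1. Host width did, with 9400 against 6900 bp in CGR8 and 10000 against 5200 bp in R1.

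Many of the regions were the sole H3K4me3 call in their host. This held for 254 of 375 in CGR8 (67.7%, 62.7 to 72.4%) and for 188 of 356 in R1 (52.8%, 47.5 to 58.1%). In 164 cases in CGR8 (43.7%) and 169 in R1 (47.5%) the other line had the H3K27me3 region too and no H3K4me3 call in it. At these places both marks were called in 1 line and only H3K27me3 in the other. H3K4me3 below the calling threshold in the other line cannot be told from its absence. A host with at least 1 shared H3K4me3 region, so that the one-line region was an extra one, was found for 113 regions of CGR8 (30.1%) and 160 of R1 (44.9%). The H3K27me3 region was also called in the other line for 97.3% of these in CGR8 and 99.4% in R1.

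Where the host held a shared H3K4me3 region, the extra one was mostly the weaker of the pair, as the low scores of one-line regions set in advance. The nearest shared region in the host scored higher in 105 of 113 cases in CGR8 and in 152 of 160 in R1, with a median ratio of 4.13 and 5.39. The nearest shared region was wider as well, at a median of 1600 and 1800 bp, and lay a median of 2800 bp away in CGR8 and 2400 bp in R1. Its median score was 231 in CGR8 and 262 in R1, below the 364 and 417 of all shared regions with H3K27me3. Of all those shared regions, 95.8% in CGR8 and 96.5% in R1 scored 50 or more.

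The lines differed in the width of the hosts. The 375 regions of CGR8 lay in 368 hosts with a median width of 8400 bp, and the 356 of R1 in 337 hosts with a median of 9000 bp. All H3K27me3 regions had medians of 7600 bp in CGR8 and 6400 bp in R1, so the hosts in R1 were wider relative to their own list. By score, the host's median percentile among H3K27me3 regions was 58.7 in CGR8 and 74.3 in R1. Among H3K27me3 regions under 5 kb, 54 of 2453 in CGR8 (2.2%) and 61 of 3294 in R1 (1.85%) held such an H3K4me3 region. From 20 kb upward, 49 of 777 did in CGR8 (6.31%, interval 4.70 to 8.25%) and 77 of 429 in R1 (17.9%, 14.4 to 21.9%). Wide regions offer more sequence, and counted per megabase of H3K27me3 the density in CGR8 was 5.70 regions under 5 kb, 3.15 from 5 to 10 kb, 2.12 from 10 to 20 kb, 2.26 from 20 to 50 kb and 2.30 from 50 kb upward. In R1 the same classes had 4.96, 3.01, 2.92, 6.74 and 9.34 per megabase. Density was thus lower from 5 to 20 kb than under 5 kb in both lines, and from 20 kb upward it was above that of every narrower class in R1 and stayed low in CGR8.

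**Figure D2:**
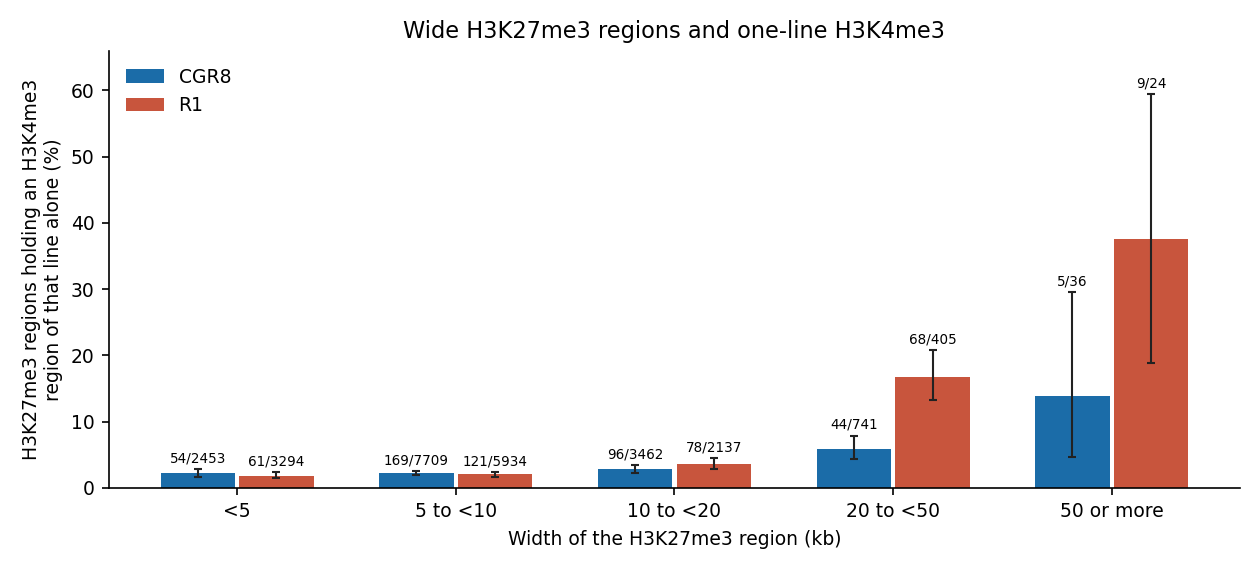
Share of H3K27me3 regions (%) of each width class (kb) that hold at least 1 H3K4me3 region of that line alone, for CGR8 (blue) and R1 (red). Bars show the share, error bars the exact Clopper-Pearson 95% interval and the fractions printed over them the counts, from 2.2% and 1.85% under 5 kb to 13.9% and 37.5% at 50 kb or more.

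The lines cut the same domains differently, so a width class does not hold the same places in both lines. Hosts of at least 20 kb held 51 regions of CGR8 alone, 92.2% of them in a host shared with R1. In R1 such hosts held 90 regions of R1 alone, 100% of them in a host shared with CGR8. How the lines compare over the same wide places was not tested. The higher count in R1 has no replicate check, and whether it would be seen in other libraries of these lines was not tested.

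The H3K4me3 regions that both lines had were also compared by score. Scores of shared regions did not enter the choice, but they come from the same libraries as the calls. They are thus not independent of the choice, and pairs that share a place are not independent of each other. Over 1052 shared H3K4me3 regions with a single partner in these places, the score was higher in R1 by a median log2 ratio of 0.09, where the median over all 21319 such regions of the genome was -0.03. In wide places with a region of R1 alone, the median over 225 pairs was 0.18, with 155 higher in R1 (68.9%). In wide places without any one-line region it was 0.08 over 788 pairs, and in those with a region of CGR8 alone -0.01 over 74 pairs. The part of this difference in the count of one-line regions was not tested.

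Over hosts of any width, shared H3K4me3 regions beside a region of R1 alone were higher in R1 by a median log2 ratio of 0.15 over 307 pairs, with 206 higher in R1 (67.1%). All shared regions in R1 H3K27me3 had a median of 0.01 over 6478 pairs. Beside a region of CGR8 alone, the median was 0.06 over 162 pairs, with 93 higher in R1 (57.4%), or -0.0016 when sharing was counted only from 50% coverage, and 0.02 over all 6448 shared regions in CGR8 H3K27me3. Shared neighbours in hosts of R1 thus had a higher median than all shared regions in R1 H3K27me3. These sets were not matched for host width. The part of host width in the shift was not tested. Those in hosts of CGR8 had a median near that of all shared regions in H3K27me3. For H3K27me3 the hosts of CGR8 had a median log2 ratio of -0.31 over 216 pairs and those of R1 of -0.19 over 235, against -0.25 for all 8037 pairs.

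**Figure D3:**
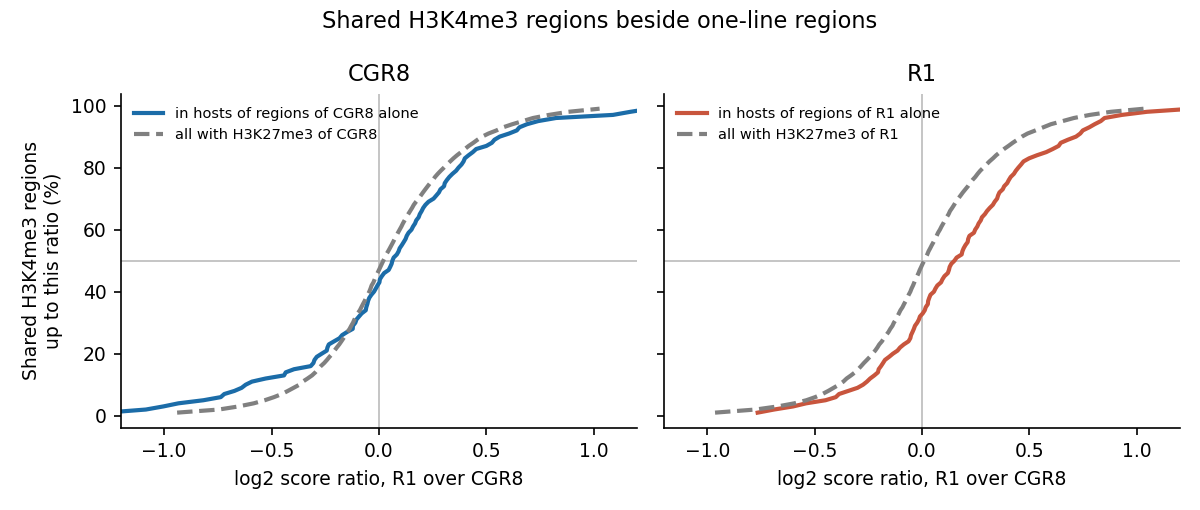
Share of shared H3K4me3 regions (%) up to a given log2 score ratio of R1 over CGR8, in hosts of one-line regions (solid) and in all H3K27me3 of that line (dashed). The curve for hosts of R1 lies to the right of its dashed one, with medians of 0.15 and 0.01, while the curves for CGR8 cross, with medians of 0.06 and 0.02.

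The widest hosts show this layout. On chromosome 6, an R1 H3K27me3 region of 123 kb (chr6:52109201-52232200) held 17 H3K4me3 regions, 14 of them shared. The other three were regions of R1 alone, at chr6:52114001-52115200 with a score of 49.6 and 28 reads, chr6:52120201-52121000 with 40.8 and 24 reads, and chr6:52190201-52191200 with 56.5 and 32 reads. The first lay 3.4 kb and the second 1.0 kb from a shared region. A CGR8 H3K27me3 region covered all 3, and the H3K4me3 regions that CGR8 had there were the shared ones.

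On chromosome 11, chr11:96121601-96248800 (127.2 kb) held 12 H3K4me3 regions in R1, 10 of them shared. The regions of R1 alone at chr11:96160401-96162400 (score 93.0) and chr11:96164401-96166600 (114.2) lay side by side, with 11.6 and 12.4 kb to the nearest shared region. On chromosome 2, chr2:74475201-74620000 (144.8 kb) held 16, with regions of R1 alone at chr2:74495401-74496200 (47.6) and chr2:74510601-74511200 (86.8 from 37 reads in 3 windows). The widest host of all, chr15:102731801-102905000 (173.2 kb), held 20, of which a single one, chr15:102856601-102858400 with a score of 39.2, was of R1 alone. CGR8 had no one-line H3K4me3 region inside H3K27me3 in these 4 hosts.

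A pair of other hosts in R1 also held 3 regions of R1 alone each. At chr7:77466801-77520600 (53.8 kb) they were chr7:77470001-77471200 (37.5), chr7:77490601-77491400 (73.9) and chr7:77510001-77511600 (80.8). The first lay outside the run of 5 shared regions and the other two within it. At chr13:73391801-73415800 (24.0 kb) they were chr13:73402601-73403400 (69.8), chr13:73405801-73406600 (51.1) and chr13:73408601-73410000 (41.0), beside 2 shared regions. In all, 16 hosts in R1 held more than 1 one-line region and 7 in CGR8 did, 2 at most in CGR8.

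**Figure D4:**
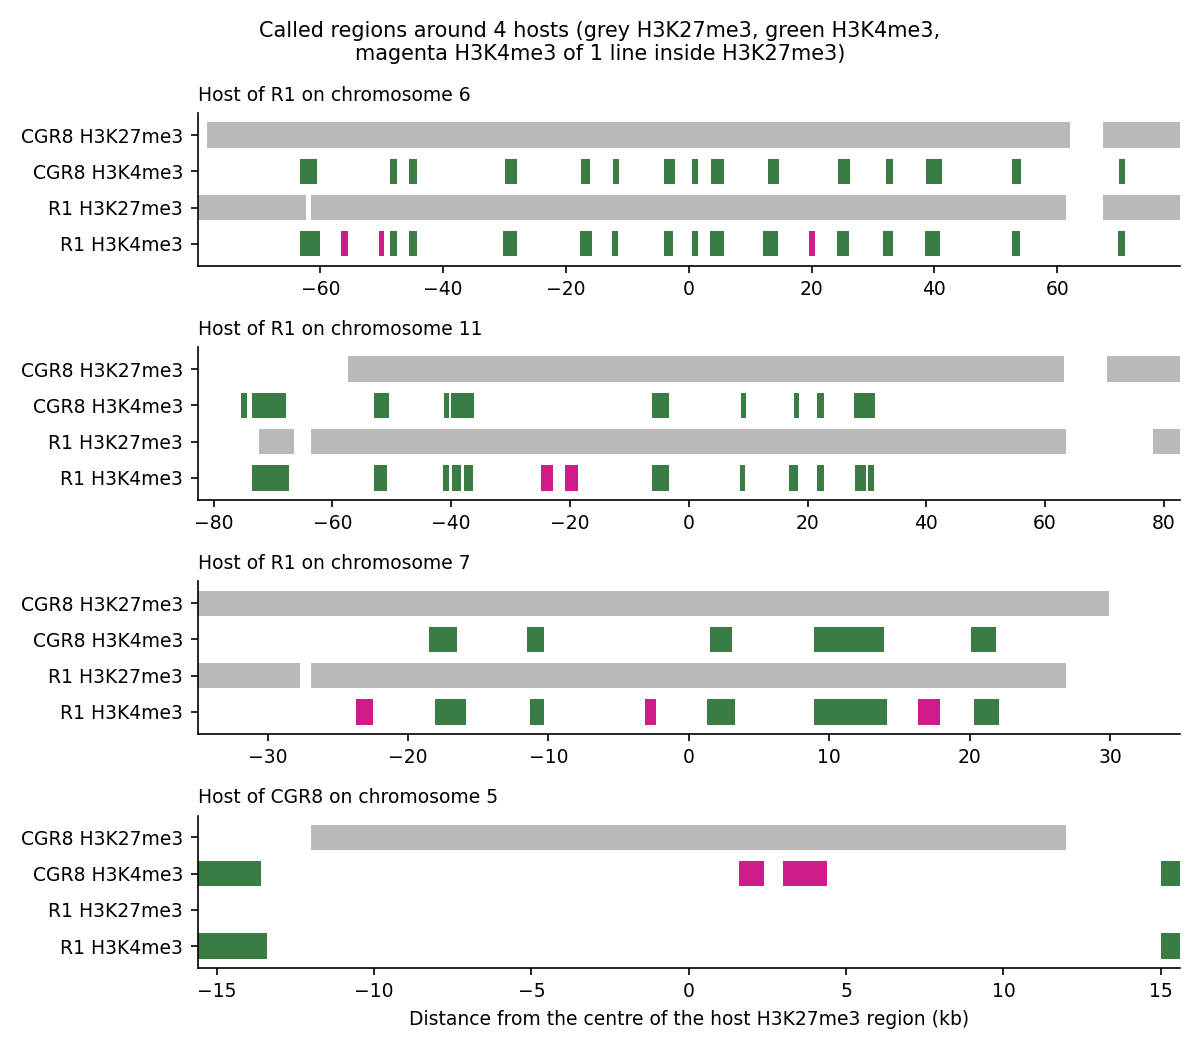
Called regions around 4 hosts, by distance from the host's centre (kb): H3K27me3 in grey, H3K4me3 in green and one-line H3K4me3 inside H3K27me3 in magenta, with a row for each line and mark. In the hosts of 123, 127.2 and 53.8 kb on chromosomes 6, 11 and 7 the regions of R1 alone lie between shared ones, except the leftmost on chromosome 7, which lies outside them. In the host of 24.0 kb on chromosome 5 both marks are called in CGR8 and neither in R1.

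The wide hosts of CGR8 held fewer. The widest, chr11:3026801-3100200 (73.4 kb), also had the highest H3K27me3 score of its list, 53531, and its counterpart in R1 had the highest of that list, 41859. A score that far above the rest sets this place apart, and it held 2 one-line regions in each line. In CGR8 these were chr11:3070601-3075400 (score 87.8) and chr11:3086001-3088800 (55.1). The next hosts by width held 1 region each: chr5:28500801-28502200 (38.9) in 65.4 kb, chr5:120684601-120686200 (39.8) in 59.8 kb and chr18:37127201-37127800 (41.7) in 52.6 kb. Those 3 scores were near the lowest of the list. On chromosome 16 a narrow host of 7.8 kb held 2 regions, chr16:31931201-31932600 (53.0) and chr16:31935401-31936000 (53.1), around 1 shared region.

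Hosts of both lines coincided at 15 places, which are 4.08% of the hosts of CGR8 and 4.45% of those of R1. Hosts made up 2.56% of all H3K27me3 regions of CGR8 and 2.86% of those of R1. Whether hosts coincide more often than other H3K27me3 regions of like width was not tested. At these places each line had an H3K4me3 region with no counterpart called in the other. An example is chr5:120278001-120303600 in CGR8 (25.6 kb), with 1 region of CGR8 alone and 2 of R1 alone. At chr2:38187401-38237800 (50.4 kb) there was 1 of each. The closest pair of one-line regions of different lines was 600 bp apart.

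The distance to the nearest shared H3K4me3 region had a median of 14600 bp in CGR8 (quartiles 4400 and 43600) and 8900 bp in R1 (2600 and 30600). One-line regions without H3K27me3 had medians of 13600 bp in CGR8 and 18300 bp in R1. Within 5 kb of a shared region lay 27.7% of the 375 in CGR8 and 38.5% of the 356 in R1 (137), against 26.5% and 20.6% of one-line regions without H3K27me3. In R1 the regions inside H3K27me3 thus lay nearer to shared ones than those outside, and in CGR8 the shares were alike. The distance went with the host: in hosts with a shared H3K4me3 region the medians were 2800 and 2400 bp, and in hosts without one 28600 and 27800 bp. In hosts of at least 20 kb they were 7600 bp in CGR8 and 3600 bp in R1.

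**Figure D5:**
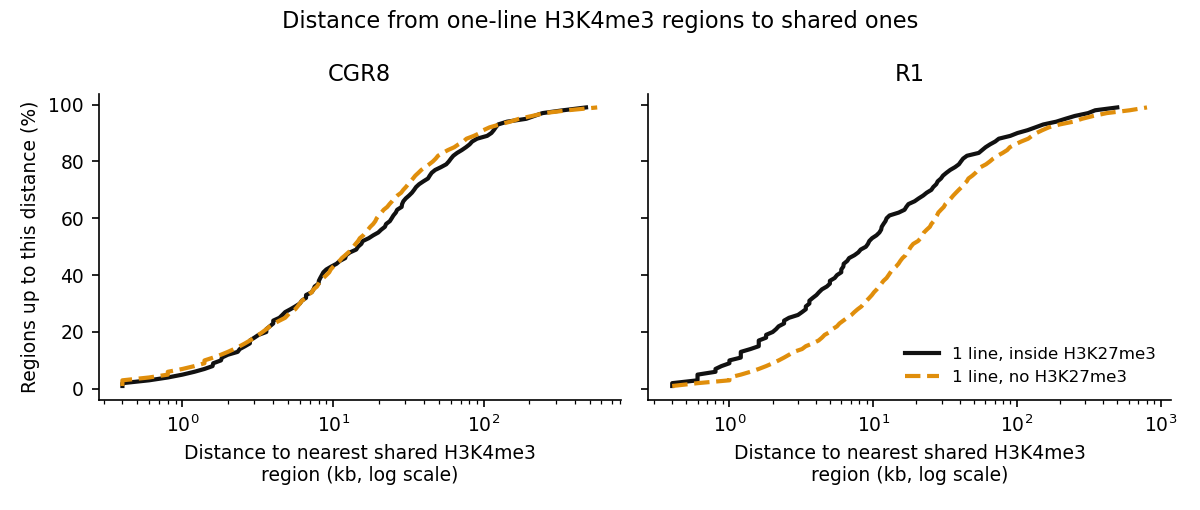
Share of one-line H3K4me3 regions (%) up to a given distance from the nearest shared H3K4me3 region (kb, log scale), inside H3K27me3 (black) and without it (orange, dashed). The curves nearly coincide in CGR8, with medians of 14600 and 13600 bp, and part in R1, with medians of 8900 and 18300 bp.

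Some regions stood far from any shared one. In CGR8 42 and in R1 36 were more than 100 kb away. The farthest were chr15:21040601-21041800 in R1, at 2291.6 kb, with a score of 68.9 from 36 reads, and chr13:26861001-26862200 in CGR8, at 1498.6 kb, with 53.4 from 34 reads. Then came chr5:19413601-19415000 (679.4 kb) and chr11:36490801-36491600 (557.2 kb) in R1, and chr10:109269601-109270600 (621.6 kb) and chr8:117674201-117675000 (554.4 kb) in CGR8. Each of these 6 was the sole H3K4me3 region of its host, and 5 of the hosts were shared by both lines. The hosts were 3.2 to 18 kb wide.

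Within a line, the strength of an H3K4me3 region was hardly related to that of its host. Spearman's rho between the scores was 0.03 over the 375 regions of CGR8 and 0.06 over the 356 of R1, given as a description, since regions of a line share a library. Host score and distance to a shared region had a rho of -0.35 in CGR8 and -0.50 in R1. The inner 50% of the host's width held 200 of the 375 CGR8 regions (53.3%) and 215 of the 356 R1 regions (60.4%). In hosts of at least 20 kb it held 21 of 51 in CGR8 (41.2%) and 54 of 90 in R1 (60.0%), and in hosts with a shared H3K4me3 region 44 of 113 (38.9%) and 93 of 160 (58.1%). The same share was not computed for other H3K4me3 regions.

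By chromosome, the regions of CGR8 were most frequent on chromosome 5, with 48 of 375 (12.8%), where it held 6.52% of the CGR8 H3K4me3 regions in H3K27me3. In R1, chromosome 5 held 32 of 356 (8.99%) against 6.21%. The lowest counts were on chromosome 16, with 7 in CGR8 and 5 in R1. A stretch of chromosome 5, chr5:149800001-150400000, chosen after its values were seen, held 7 of the regions of CGR8, including the strongest of all, and none of R1. For 6 of the 7 the host was of CGR8 alone. One such host was chr5:150043601-150067600 (24.0 kb), which held chr5:150057201-150058000 (44.8) and chr5:150058601-150060000 (67.5), with neither mark called in R1. The stretch had 19 H3K27me3 regions in CGR8 and 11 in R1, and 28 and 16 H3K4me3 regions. Its shared regions scored lower in R1: the median log2 ratio was -0.55 over 16 pairs of H3K4me3 and -1.42 over 6 of H3K27me3, against -0.03 and -0.25 over all pairs. Both marks thus differed there in the same direction, and the cause was not tested. Without this stretch CGR8 had 368 regions and a share of shared hosts of 75.5%.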

How the data were processed

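H3K4me3 and H3K27me3 were measured by ChIP-seq in 1 library of each line and mark. The authors deposited 1 list of regions per library, with chromosome, start, end and a score. The build was mm9 and the software Bowtie2 2.0.2 (an aligner), bedtools 2.20.1 and SICER 1.1 (a caller of broad regions), per the submitters' processing notes. Neither settings, a control library nor a threshold is stated in the labels or notes used here. The protocol in the labels credits Diagenode for both antibodies, and the characteristics name Millipore for that against H3K27me3. The deposited score was used within a list, or as a log2 ratio between shared regions with 1 partner each way.

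Regions were overlapped by at least 1 bp, with starts counted from 1. Shared regions are those that overlapped one of the other line. The mean reads per 200 bp window was solved from the scores of regions of 400 bp within 1e-06. For H3K4me3 it explained 134 of 135 such regions in CGR8 and 148 of 149 in R1, where the next best mean explained 7 and 8. It was 0.740 in CGR8 and 0.706 in R1. For H3K27me3 it was 2.11 in CGR8 and 1.92 in R1, and rests on few regions. It explained 7 of 8 in CGR8 and 2 of 2 in R1, where the next best mean explained 2 and 1. It is proportional to the reads used, and depth sets which weak regions were called. PCR reads without molecular identifiers are not independent molecules, so intervals (exact Clopper-Pearson for shares, exact Poisson for reads, 95%) cover counting error only. Overlaps of regions and recovery of reads were tested on simulated data, in which each window held at least 2 reads. Python 3.11.15 with numpy 2.4.6, scipy 1.17.1, pandas 2.3.3 and matplotlib 3.10.9 was used.

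No test between lines was made, with 1 library each. The regions named are, in each line, the 5 of highest score, the 5 widest, the 5 in the widest hosts, those in up to 3 hosts with the most of them and the 3 farthest from a shared region. The places with hosts of both lines and the stretch of chromosome 5 were picked with their values in view. The regions, measures and lists were chosen with earlier results of these data known. Gene and promoter tables at hand are on another build, so no gene names or sequences are given. Alternatives changed the overlap, the gap, the score minimum, the chromosomes, joining and list length, or left out the place of highest H3K27me3 score or the chromosome 5 stretch.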

Additional observations from a re-analysis of the deposited data

Results flagged for a closer look

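The rule left out the X chromosome and the block of chromosome 1, and both held H3K4me3 regions that otherwise met it. On the X chromosome there were 5 of R1 alone, among 38 one-line H3K4me3 regions, with a median score of 52.9 and 2 of 5 hosts shared. CGR8 had 1 there among 49. In the chromosome 1 block there were 10 of R1 alone, among 29 one-line regions, with a median score of 55.2 and 3 of 10 hosts shared, and CGR8 had 0 among 3. These values were noted because they lie outside the regions analysed, and the lists hold no control library to set them against.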

How the results depend on the processing

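No paired analysis was possible because each line and mark has 1 library, and for the same reason no library could be left out. Over 16 results, 176 values were recomputed, of which 172 kept their direction and stayed within the interval or margin of the reported value, 3 moved out of it and 1 changed sign. With regions taken as shared only from 50% coverage, the median score in CGR8 was 51.3, and the median log2 ratio of shared H3K4me3 regions in hosts of CGR8 was -0.0016 in place of 0.06. The alternatives with lists of equal length, without the highest-scoring H3K27me3 region and without the chromosome 5 stretch were chosen after seeing the data. With H3K4me3 lists of equal length the median score in CGR8 was 51.5, and with H3K27me3 lists of equal length 92.4% of hosts in R1 were shared. The cause of these shifts was not tested. The share of H3K27me3 regions of at least 20 kb with a one-line H3K4me3 region ran from 5.28 to 7.08% in CGR8 and from 15.9 to 19.3% in R1. Keeping only the higher-scoring 50% of each list left no region in either line. None of the 16 results was recomputed for that setting, and the ranges above leave it out. Depth limits the regions themselves: those up to 1400 bp wide rest on a median of 29 reads in CGR8 and 27 in R1, and wider ones have no read count.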
